A study of Canis lupus familiaris with 8 samples.

Results

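The Krüppel-like factor genes of the dog retina, 10 zinc finger transcription factor genes taken by symbol (KLF2, KLF3, KLF4, KLF6, KLF7, KLF9, KLF10, KLF11, KLF13 and KLF15), were followed in bulk RNA sequencing of PFA-fixed and fresh-frozen tissue. All 10 were present among the 12824 genes of the deposited table. The samples were retinas of male wild-type Beagles aged 31 weeks, with 4 libraries per preparation. PFA-fixed retina came from left eyes fixed for 3 h in 4% paraformaldehyde (PFA, a crosslinking fixative) and a further 24 h in 2% PFA (4 °C), then taken through 15% and 30% sucrose (24 h each), embedded and frozen, and its RNA was extracted with an FFPE kit after 18 h of proteinase K at 56 °C. Fresh-frozen retina came from right eyes embedded without fixation or sucrose, and its RNA was extracted with a micro column kit. Preparation, side of the eye and extraction kit changed together and cannot be told apart. The labels speak of biological replicates without saying which libraries share a dog, so a p-value here reflects the spread among these libraries, which may be partly technical.

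Krüppel-like factors bind GC-rich and CACCC-type DNA elements through zinc fingers at their carboxy-terminal end, and their remaining parts recruit either activators or repressors. KLF2 and KLF4 are best known from endothelium, where laminar blood flow induces them through the MEK5, ERK5 and MEF2 cascade and where they hold back inflammation and clotting. In retinal ganglion cells of rodents, KLF4 and KLF9 restrain axon growth, whereas KLF6 and KLF7 favour it, also in the zebrafish optic nerve. KLF9, KLF10 and KLF15 follow the circadian clock in several mammalian tissues, and KLF9 and KLF15 respond to glucocorticoids.

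Values are log2 CPM, that is, counts scaled to library size on a log2 axis, and each change is PFA-fixed minus fresh-frozen on that scale. The effective depth, estimated from the spacing of low values, was 11030000 to 15340000 reads in PFA-fixed and 21610000 to 22810000 reads in fresh-frozen libraries. CPM is not a level per length of transcript, so levels were compared between libraries and not between genes. Rod genes marked the tissue as retina in both groups, with all 17 listed genes measured at a summed 32997 to 37787 CPM in PFA-fixed and 30038 to 35085 CPM in fresh-frozen libraries. With limma, 68.7% of all genes were called at an adjusted p under 0.05, 34.7% lower and 33.9% higher in PFA-fixed retina. Rises made up 49.4% of these calls with the deposited scaling, against 30.6% and 11.8% when libraries were centred on the mean or the median of the rod genes, scalings that moved the median change of all genes from -0.02 to -0.28 and -0.66.

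Of the 10 Krüppel-like factor genes, 9 fell in PFA-fixed retina (34.7% of all genes), none rose (33.9% of all genes), and KLF7 was not called. All 9 fell under each of the 4 other scalings too. KLF2 and KLF13 are in the table only through their fresh-frozen levels, as set out below. The median change of the family was -1.88, beside a median of -0.02 over all genes. A fall of at least 2-fold was called for 6 members (13.7% of all genes), and the groups did not overlap for 9 members, all lower in PFA-fixed retina (62.9% of all genes in either direction, 31.6% lower). With the deposited scaling and log scale, the size of the fall ran from 20.7-fold for KLF2 to 1.29-fold for KLF3. The rod median scaling shifted all genes down alike, to -5.02 for KLF2 and -1.02 for KLF3.

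**Figure D1:**
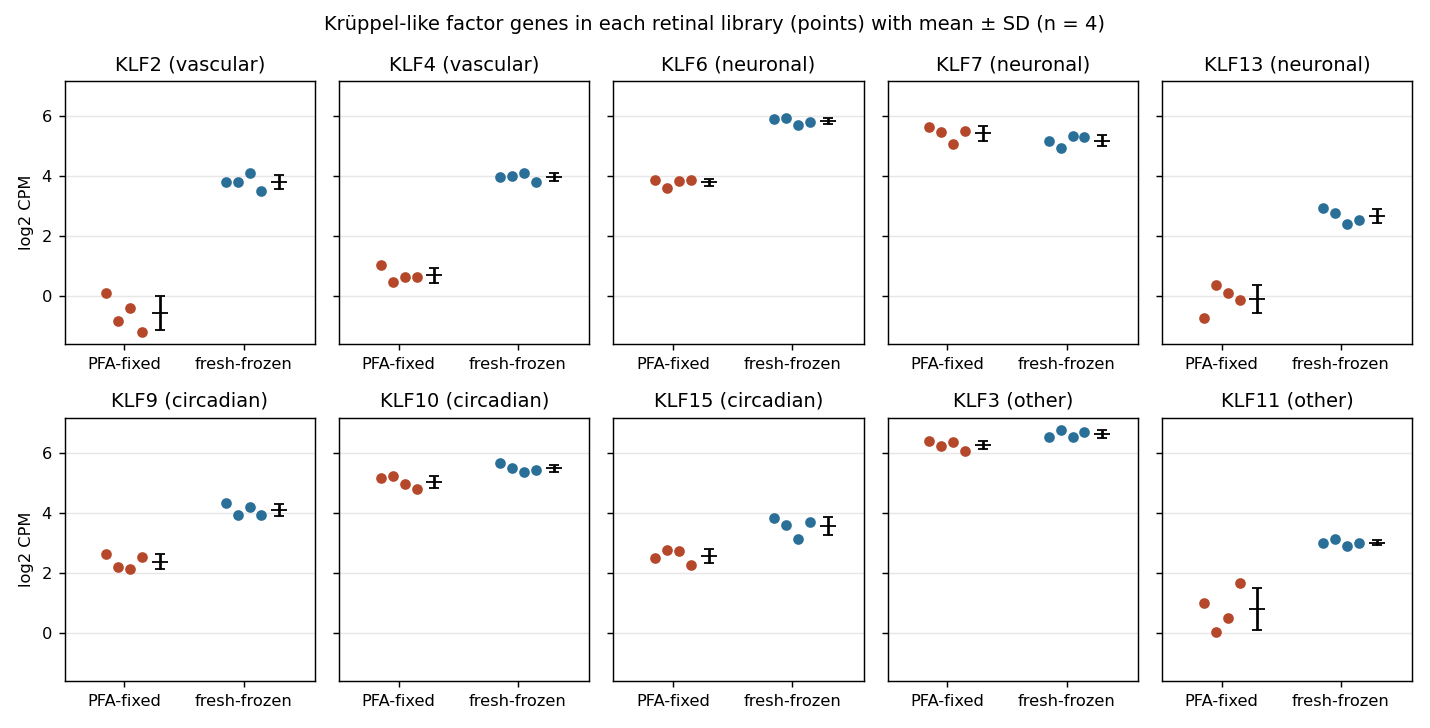
Level of each Krüppel-like factor gene (log2 CPM, y axis) in 4 PFA-fixed and 4 fresh-frozen libraries (points in replicate order), with mean ± SD beside them. The PFA-fixed points lie below all fresh-frozen points for 9 genes, and the groups overlap for KLF7.

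KLF2, the flow-induced endothelial factor, had the largest fall of the family. It stood at 0.12, -0.82, -0.39 and -1.19 log2 CPM in PFA-fixed replicates 1 to 4, against 3.82, 3.79, 4.09 and 3.52 log2 CPM in fresh-frozen replicates 1 to 4. Every PFA-fixed library was therefore more than 3 log2 units below every fresh-frozen one. The change was -4.37 ± 0.28 (SE; limma adjusted p = 8.46e-08), and 1.04% of all genes fell further. In the PFA-fixed libraries these values stand for about 11.9, 4.99, 9.95 and 4.01 reads, against 258 to 374 reads in fresh-frozen libraries. A few reads are added to every gene before the log, and the fold between the mean linear values without them was 23.3. The table holds only genes over 1 CPM in at least 4 libraries. KLF2 was below 1 CPM in the PFA-fixed libraries other than replicate 1, so it is there only through its fresh-frozen level. A gene this low in fixed retina could enter the table only if it was higher in fresh-frozen retina. On the log2(CPM + 1) scale, which compresses low values, the change of KLF2 was -3.14. In bulk tissue, fewer cells of a type and less RNA per cell cannot be told apart, for this gene and for those that follow.

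KLF4, which shares the endothelial role of KLF2 and is also known from epithelia and from reprogramming to pluripotency, fell next furthest. Its levels were 1.05, 0.48, 0.63 and 0.65 log2 CPM in PFA-fixed replicates 1 to 4, against 3.97, 3.99, 4.09 and 3.79 log2 CPM in fresh-frozen replicates 1 to 4. The SD was 0.25 in PFA-fixed and 0.13 in fresh-frozen retina, beside median SDs over all genes of 0.15 and 0.16. The change was -3.26 ± 0.17 (SE; limma adjusted p = 1.99e-08), a 9.55-fold fall, and -2.65 on the log2(CPM + 1) scale.

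The members grouped here as neuronal are KLF6, KLF7 and KLF13, and they did not move together. KLF6, an early response gene that favours axon growth, fell to 3.87, 3.61, 3.83 and 3.87 log2 CPM in PFA-fixed replicates 1 to 4, against 5.89, 5.94, 5.71 and 5.78 log2 CPM in fresh-frozen replicates 1 to 4. Its change of -2.04 ± 0.10 (SE; limma adjusted p = 7.42e-09) had the lowest p of the family, with an SD of 0.12 and 0.11 in the PFA-fixed and fresh-frozen groups.

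KLF7, the closest relative of KLF6 and a factor of neuronal outgrowth in mice, was the only one of the 10 members that was not called. Its levels were 5.64, 5.47, 5.07 and 5.51 log2 CPM in PFA-fixed replicates 1 to 4, against 5.15, 4.94, 5.32 and 5.31 log2 CPM in fresh-frozen replicates 1 to 4. PFA-fixed replicate 3 lay inside the fresh-frozen range and the other 3 lay above it. The change was 0.24 with a 95% interval of -0.04 to 0.52 (limma adjusted p = 0.118). It was called higher without PFA-fixed replicate 3 (0.36, limma adjusted p = 0.0140) and after each library was centred on its median (0.32, limma adjusted p = 0.0431), and it was -0.02 and -0.41, not called, with the rod mean and rod median scalings.

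KLF13, a repressor that works with the SIN3A complex, had levels of -0.73, 0.37, 0.12 and -0.12 log2 CPM in PFA-fixed replicates 1 to 4, against 2.92, 2.78, 2.39 and 2.55 log2 CPM in fresh-frozen replicates 1 to 4. The groups were separated by about 2 log2 units, although the PFA-fixed values stand for only about 5.97 to 14.9 reads. PFA-fixed replicates 1 and 4 lay below 1 CPM, so KLF13, like KLF2, is in the table only through its fresh-frozen level. The change was -2.75 ± 0.27 (SE; limma adjusted p = 2.78e-06), a 6.73-fold fall. On the log2(CPM + 1) scale it was -1.90, beside -1.96 for KLF6.

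The circadian members KLF9, KLF10 and KLF15 all fell, by different amounts. KLF9, induced by thyroid hormone and glucocorticoids, stood at 2.61, 2.19, 2.14 and 2.54 log2 CPM in PFA-fixed replicates 1 to 4, against 4.32, 3.93, 4.20 and 3.92 log2 CPM in fresh-frozen replicates 1 to 4. The gap between the groups exceeded 1 log2 unit, and the change was -1.73 ± 0.16 (SE; limma adjusted p = 1.69e-06). For KLF15, a regulator of amino acid and glucose metabolism, the PFA-fixed replicates 1 to 4 held 2.50, 2.77, 2.71 and 2.27 log2 CPM, against 3.83, 3.58, 3.12 and 3.68 log2 CPM in the fresh-frozen replicates 1 to 4. Fresh-frozen replicate 3 was the lowest of its group and still above all PFA-fixed libraries, and the change was -0.99 ± 0.18 (SE; limma adjusted p = 0.000449).

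KLF10, a TGF-β-inducible early gene, was among the members least changed. Its levels were 5.16, 5.22, 4.95 and 4.80 log2 CPM in PFA-fixed replicates 1 to 4, against 5.64, 5.49, 5.36 and 5.42 log2 CPM in fresh-frozen replicates 1 to 4. The groups stayed apart by little more than 0.1 log2 units. The fall was 1.36-fold, with a change of -0.44 ± 0.11 (SE; limma adjusted p = 0.00307), and 28.5% of all genes fell further.

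The remaining members are KLF11 and KLF3. KLF11, the TGF-β-inducible relative of KLF10, had levels of 0.99, 0.03, 0.50 and 1.67 log2 CPM in PFA-fixed replicates 1 to 4, against 2.99, 3.13, 2.91 and 2.99 log2 CPM in fresh-frozen replicates 1 to 4. It varied most within the fixed group of all members (SD 0.70, against 0.09 in fresh-frozen retina), with about 9.99 to 38.1 reads behind each fixed value. Its change was -2.21 ± 0.30 (SE; limma adjusted p = 4.47e-05). KLF3, a repressor that recruits CtBP proteins, was at 6.37, 6.21, 6.36 and 6.07 log2 CPM in PFA-fixed replicates 1 to 4, against 6.53, 6.76, 6.51 and 6.70 log2 CPM in fresh-frozen replicates 1 to 4. Its change of -0.37 ± 0.09 (SE; limma adjusted p = 0.00264) was the smallest of the 9 falls, and the groups did not overlap.

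**Figure D2:**
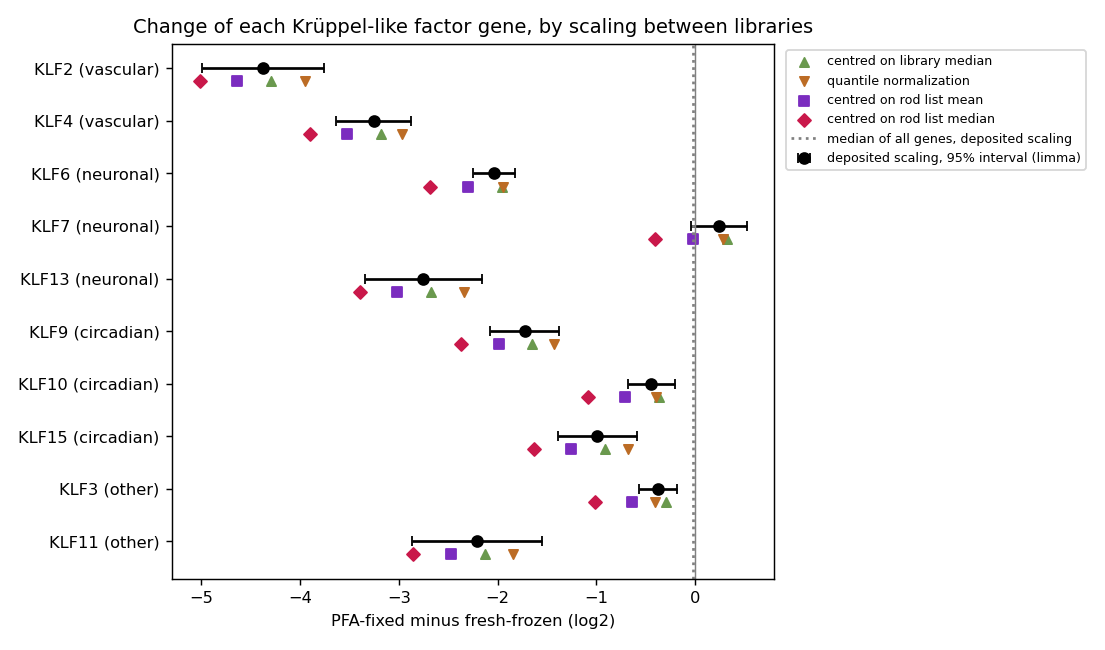
Change of each Krüppel-like factor gene, PFA-fixed minus fresh-frozen (log2, x axis), as black points with 95% limma intervals, and under 4 other scalings as coloured symbols. The symbols of 9 genes stay below 0 under every scaling shown, from -5.02 to -0.29, and those of KLF7 lie on both sides of 0.

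The vascular pair was then set against the neuronal and circadian members within each library, a difference that no constant shift of a library can change. The mean of KLF2 and KLF4 minus the mean of KLF6, KLF7 and KLF13 was -2.34, -3.32, -2.88 and -3.36 in PFA-fixed replicates 1 to 4, against -0.76, -0.67, -0.38 and -0.89 in fresh-frozen replicates 1 to 4. The ranges did not overlap, and the pair fell by 2.30 more on the log2 scale than the neuronal members. Against KLF9, KLF10 and KLF15 the same difference was -2.84, -3.56, -3.14 and -3.47 in PFA-fixed and -0.71, -0.45, -0.13 and -0.69 in fresh-frozen replicates 1 to 4. Here too the ranges were separate, with the pair falling by 2.76 more. No p-value is given for these scores. KLF2 in the pair and KLF13 among the neuronal members are in the table only through their fresh-frozen levels, which limits what these differences show. The members were chosen with earlier results known, which limits the p-values of single members and listed genes as well. On the log2(CPM + 1) scale the differences between groups were -1.68 and -1.94.

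The contrast does not hold member by member. KLF13 fell by 2.75, less than KLF4 at 3.26, and the 95% intervals of these changes overlapped (-3.34 to -2.16 for KLF13 and -3.64 to -2.87 for KLF4). KLF11 and KLF6, outside the vascular pair, also fell at least 4-fold with the deposited scaling. The difference between KLF13 and KLF4 was not tested.

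Closely related members differed from each other. KLF6 minus KLF7 was -1.86 to -1.24 in PFA-fixed and 0.39 to 0.998 in fresh-frozen libraries, a difference between the groups of -2.28; where 0 lies depends on the lengths of the transcripts. KLF10 minus KLF11 was 3.13 to 5.19 in PFA-fixed and 2.35 to 2.65 in fresh-frozen libraries, a difference of 1.77. KLF9 minus KLF13 was 1.82 to 3.35 in PFA-fixed and 1.16 to 1.81 in fresh-frozen libraries, which barely separates the groups. KLF2 minus KLF4 was -1.85 to -0.93 in PFA-fixed and -0.27 to -0.00297 in fresh-frozen libraries. The group differences of the last 2 pairs were 1.03 and -1.12, and on the log2(CPM + 1) scale 0.35 and -0.49. These pairs were picked after the values were seen and carry no test.

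**Figure D3:**
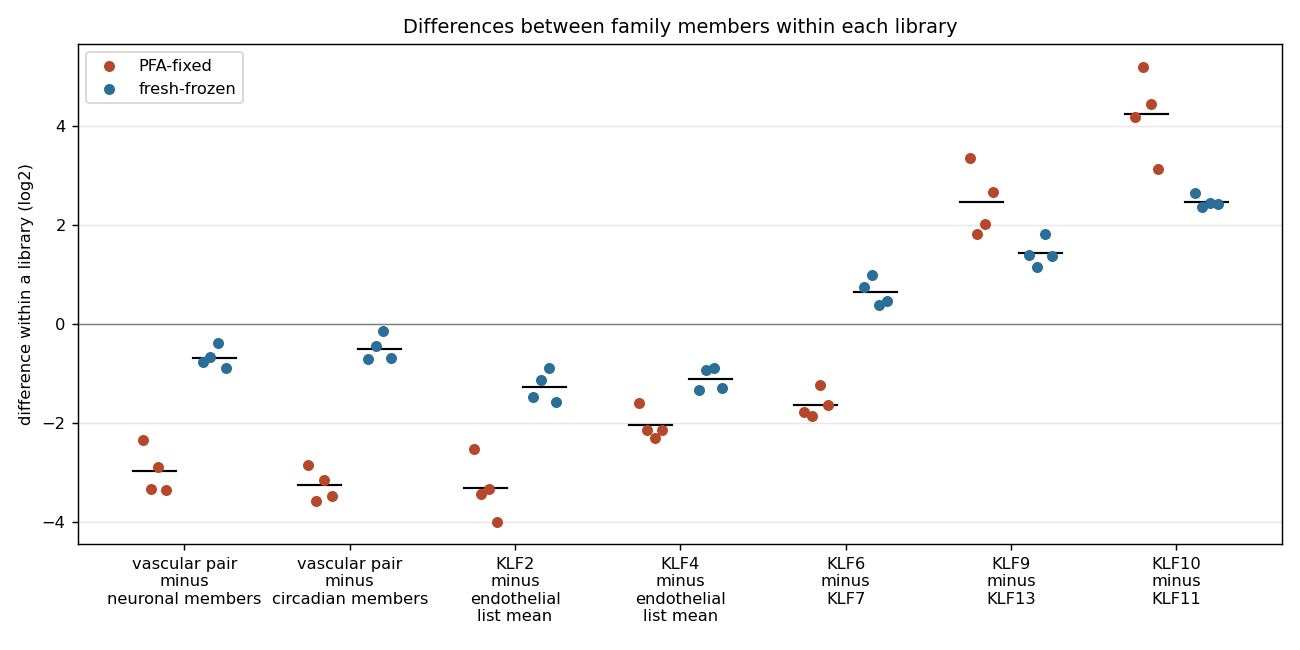
Differences within a library (log2, y axis) between members of the family, or between KLF2 or KLF4 and the mean of the endothelial list, for 4 PFA-fixed and 4 fresh-frozen libraries (points) with group means (bars). In each column the 4 PFA-fixed points lie apart from the 4 fresh-frozen points, but only barely for KLF9 minus KLF13. Where 0 lies depends on transcript lengths, so only the distance between the groups is read.

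Markers of vessel cells were lower in PFA-fixed retina too. Falls were called for 13 of 14 measured endothelial genes (34.7% of all genes) and a rise for none, with a median change of -2.65 and a summed level of 521 to 644 CPM in PFA-fixed and 1036 to 1404 CPM in fresh-frozen libraries. The endothelial transcription factor genes SOX17 and SOX18 changed by -3.40 and -3.37 (limma adjusted p = 4.57e-06 and 8.25e-07), and by -2.01 and -2.29 on the log2(CPM + 1) scale. SOX17 was below 1 CPM in all PFA-fixed libraries and SOX18 in most of them. Both are in the table, which holds genes over 1 CPM in at least 4 libraries, only through their fresh-frozen levels. The 10 measured genes of pericytes and smooth muscle were all lower as well, with a median of -3.14 and a summed level of 360 to 443 CPM in PFA-fixed and 1663 to 2420 CPM in fresh-frozen libraries, and ACTA2 and CSPG4 changed by -3.84 and -3.81 (limma adjusted p = 6.23e-06 and 1.72e-07). No marker of either list was at the lowest value of the table in all 4 PFA-fixed libraries. Their part in the falls of KLF2 and KLF4 was not tested.

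Set against the mean of the endothelial list in the same library, KLF2 was at -2.52, -3.43, -3.32 and -3.99 in PFA-fixed replicates 1 to 4 and at -1.48, -1.12, -0.88 and -1.57 in fresh-frozen replicates 1 to 4. KLF4 was at -1.59, -2.14, -2.30 and -2.14 in PFA-fixed and at -1.32, -0.93, -0.88 and -1.29 in fresh-frozen replicates 1 to 4. Neither range overlapped, and the group differences were -2.05 for KLF2 and -0.94 for KLF4. For KLF2 the difference was -1.19 on the log2(CPM + 1) scale. Members outside the pair lay nearer to this list or above it. The groups overlapped for KLF6, KLF9, KLF11 and KLF13, with group differences of 0.28, 0.59, 0.11 and -0.43. They were separate for KLF3, KLF10 and KLF15, which fell less than the list (1.95, 1.87 and 1.33), and for KLF7, which was not called itself (2.56). Against the pericyte and smooth muscle mean, the groups were separate for KLF2 (a difference of -1.43, and -0.52 on the log2(CPM + 1) scale) and overlapped for KLF4 (-2.47 to -2.15 in PFA-fixed and -2.30 to -1.67 in fresh-frozen libraries).

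Lists of other cells that the tissue could hold also moved. The median changes were -7.40 for sclera and fibroblast genes, -5.31 for melanocyte, -3.33 for pigment epithelium and -2.72 for microglia genes. Sclera and fibroblast genes summed to 190 to 215 CPM in PFA-fixed and 8117 to 11218 CPM in fresh-frozen libraries. The sums were 156 to 166 against 1554 to 2322 CPM for melanocyte genes. For pigment epithelium genes they were 337 to 413 against 2244 to 3275 CPM. Median changes were -1.66 for oligodendrocyte, -0.61 for Müller glia and -0.20 for the 3 measured astrocyte genes. The oligodendrocyte and astrocyte medians were -1.17 and 0.03 without fresh-frozen replicate 1, and -3.34 and -1.76 with a minimum mean of 3 log2 CPM. Their summed levels were 59.9 to 67.0 CPM for oligodendrocyte genes in PFA-fixed and 260 to 1104 CPM in fresh-frozen libraries, and 108 to 121 CPM for astrocyte genes in PFA-fixed and 122 to 1657 CPM in fresh-frozen libraries. Among neurons the medians were -0.51 for ganglion cells, 0.12 for cones, 0.32 for bipolar cells and 0.27 for rods, and the last 3 turned to between -0.52 and -0.33 with the rod median scaling. The rod value there, -0.38, comes from a scaling built on the same rod genes and is no check of it. That scaling did not hold the median change of the rod list level. The cone median also turned with the rod mean scaling (-0.14), without PFA-fixed replicate 4 (-0.0647) and without fresh-frozen replicate 2 (-0.0112), and the rod median with quantile normalization (-0.00697). Which of these cells the family members came from was not tested.

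Of the wider family, 7 of 17 listed KLF and SP genes were measured, of which 1 fell and 5 rose (34.7% and 33.9% of all genes). KLF5, known from epithelia and smooth muscle, was at 2.47 to 3.04 log2 CPM in PFA-fixed and 3.46 to 4.23 log2 CPM in fresh-frozen libraries, a change of -1.17 (limma adjusted p = 0.000122). KLF12, a CtBP-recruiting relative of KLF3 named here after its values were seen, was at 5.99 to 6.23 log2 CPM in PFA-fixed and 5.37 to 5.74 log2 CPM in fresh-frozen libraries, a change of 0.54 (limma adjusted p = 0.000306) that was -0.11 and not called with the rod median scaling. Of the SP genes, whose zinc fingers resemble those of the KLF proteins, SP9 rose by 0.91, SP2 by 0.74 and SP1 by 0.26 (limma adjusted p = 0.00228, 4.84e-06 and 0.00227). SP1 was at -0.00151 and -0.38 with the rod mean and rod median scalings, and the rises of the list numbered 3 and 0 there, with SP2 and SP9 at 0.0900 and 0.26 and not called under the rod median scaling.

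Genes upstream of KLF2 and KLF4 went both ways, with 5 of 13 lower, 5 higher and a median of 0.14 (-0.12 and 3 rises with the rod mean scaling, -0.50 and no rises with the rod median scaling). These shares lay near those over all genes, of which 34.7% were lower and 33.9% higher. The endothelial flow sensors PLXND1 and PIEZO1 changed by -3.52 and -0.998 (limma adjusted p = 4.43e-10 and 5.02e-07). Both are falls, and the highest change of the list was 0.86. All 6 measured genes that KLF2 or KLF4 induce in endothelium fell, with a median of -1.71, among them the anticoagulant receptor gene THBD (-3.68), the angiopoietin receptor gene TEK (-2.66) and the haem oxygenase gene HMOX1 (-2.08; limma adjusted p = 2.47e-08, 1.70e-08 and 5.74e-07). Genes that they repress there were mixed, with 3 of 7 lower and 3 higher (none higher with the rod median scaling). The adhesion genes ICAM1 and VCAM1 changed by -3.79 and -2.84, and the selectin gene SELE rose by 1.24 (limma adjusted p = 1.83e-07, 4.16e-09 and 3.87e-05), a rise not called with the rod median scaling. On the log2(CPM + 1) scale THBD and ICAM1 changed by -3.01 and -2.86.

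Clock genes, set beside KLF9, KLF10 and KLF15, fell in 10 and rose in 6 of 20 measured cases, with a median of -0.15 (3 rises and 1 rise with the rod mean and rod median scalings). Over all genes 34.7% fell and 33.9% rose. PER3 rose by 1.73, BMAL1 rose by 0.91 and BHLHE40, a clock repressor, fell by 1.42 (limma adjusted p = 2.22e-09, 6.27e-07 and 3.95e-07), and BMAL1 was not called with the rod median scaling (0.27). Among 8 glucocorticoid response genes there were 6 falls and no rise, and the median was -0.53. ZBTB16, TSC22D3 and DUSP1, textbook targets of the glucocorticoid receptor, changed by -2.47, -2.20 and -1.59 (limma adjusted p = 2.69e-06, 5.27e-08 and 4.55e-06).

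Of 16 genes of the TGF-β pathway, to which KLF10 and KLF11 respond, 11 were lower and none higher, and the median was -1.17. The counts in this paragraph stand beside 34.7% lower and 33.9% higher over all genes. LTBP1, which stores latent TGF-β in matrix, fell by 4.57, and the receptor genes TGFBR3 and TGFBR2 changed by -3.43 and -3.38 (limma adjusted p = 2.28e-09, 3.46e-09 and 1.19e-09). KLF cofactor genes were mixed, with 6 of 14 lower, 4 higher and a median of -0.03 (0.05 when libraries were centred on their medians; 10 lower and none higher with the rod median scaling). The KLF3 partner gene FHL3 fell by 2.30, and SAP30 of the SIN3 complex rose by 0.96 (limma adjusted p = 0.000122 and 5.64e-05), with 0.32 and no call for SAP30 under the rod median scaling, and -1.70 and -1.16 for FHL3 after quantile normalization and on the log2(CPM + 1) scale. Immediate early genes numbered 18, with 12 falls, 1 rise (none with the rod median scaling, 2 after quantile normalization) and a median of -1.37, among them the AP-1 genes FOSL2 (-2.84) and JUND (-1.85; limma adjusted p = 6.19e-09 and 6.85e-08). Axon growth genes fell in 6 and rose in 3 of 11 cases, with a median of -0.29 (1 rise with the rod median scaling). The neurotrophin receptor gene NTRK2 fell by 1.89 and the microtubule gene DCX rose by 1.46 (limma adjusted p = 3.84e-05 and 1.58e-05), and ATF3 changed by -2.69 (limma adjusted p = 0.00356) with groups that overlapped, by -3.54 without PFA-fixed replicate 4 and by -1.63 on the log2(CPM + 1) scale.

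**Figure D4:**
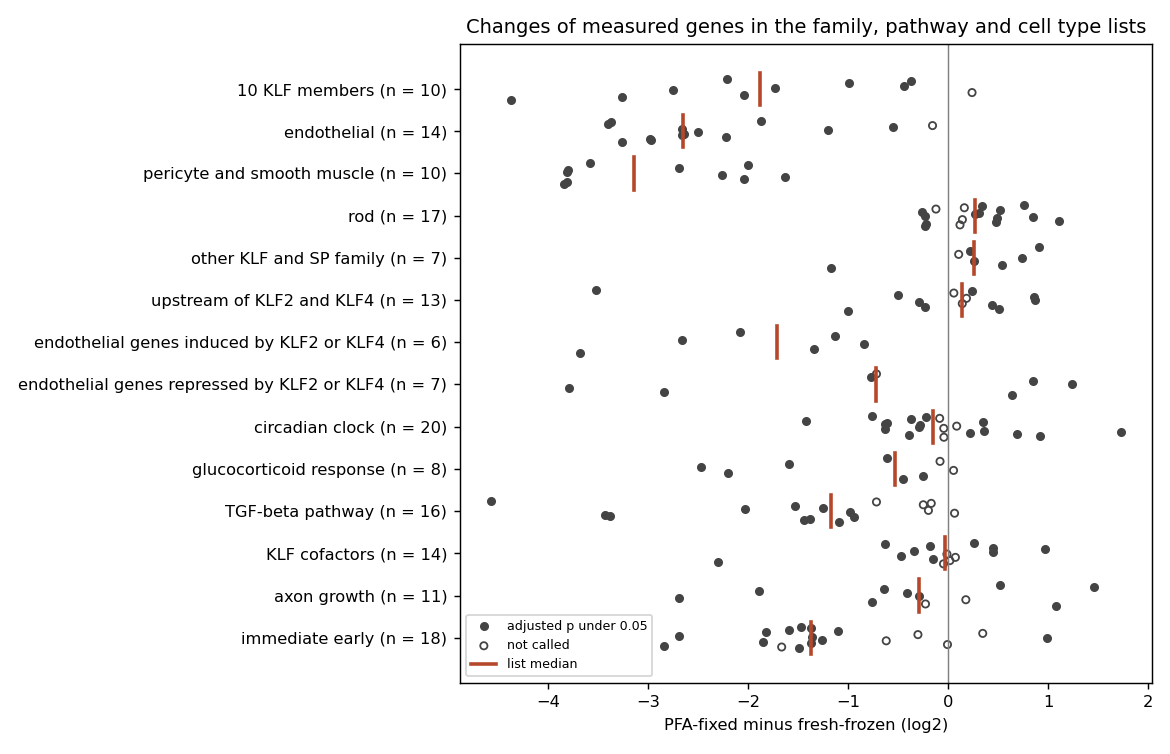
Changes of measured genes, PFA-fixed minus fresh-frozen (log2, x axis), for the 10 family members and for pathway and cell type lists; each point is a gene, filled where the limma adjusted p was under 0.05, and the bar is the list median. The family median of -1.88 lies between the endothelial median of -2.65 and the rod median of 0.27.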

How the data were processed

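Per the submitters' processing notes, the authors used kallisto 0.48.0, edgeR and limma, with no role or order given. Reference transcripts, strand and filter settings: not given in the sources used here. Values deposited by the authors are log2 CPM of 8 libraries, counts scaled to library size on a log2 scale, and every gene exceeded 1 CPM in at least 4 of them. All libraries share a lowest value of -3.12 log2 CPM (about 2.01 reads at the mean depth), which understates changes of low genes. Depth came from the spacing of values up to 20 reads, searched between 0.03 and 0.15 CPM; 61.9% to 70.0% were whole within 0.1 of a read, where chance gives 20%, so no count test was run.

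Groups were compared in R 4.3.3 by limma 3.58.1 with its trend option and a group term alone; p-values of all 12824 genes were adjusted by Benjamini-Hochberg (threshold 0.05). Python 3.11.15 did the rest. In simulated data of this comparison over 12824 genes it recovered 68%, 82%, 92% and 100% of 50 genes changed 1.5-, 2-, 4- and 8-fold each, and called 17 of 12624 unchanged genes. The simulation had independent normal noise, no shift between libraries and far fewer changed genes than the 68.7% called here. These rates therefore do not carry over to the data. Members and lists were chosen with earlier results of these data known. Text names outside the family come from a rule: the 2 most abundant members of a pathway list and its 3 called members with the largest change (2 for cell types), and the 3 genes most correlated with KLF2 and with KLF4. A gene named outside the rule is marked. Not every gene that the rule picked is named, and most of the abundant picks, such as MEF2C and HEG1, are left out. Symbols were matched to the RefSeq table of UU_Cfam_GSD_1.0 (12495 matched), used for names and neighbours only. Alternatives were leaving out each library, a replicate block, 4 scalings, a minimum mean of 3 log2 CPM, log2(CPM + 1) and limma without trend.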

Additional observations from a re-analysis of the deposited data

Results flagged for a closer look

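Within groups of 4 libraries, 6 of 108 tested sets of values held a library far from the other 3, where chance gives about 1 in 20. KLF6 was at 3.61 log2 CPM in PFA-fixed replicate 2, against 3.83 to 3.87 in the other fixed libraries. ATF3 was at 2.31 log2 CPM in PFA-fixed replicate 4, against -1.20 to -0.94 in the other fixed libraries. BMAL1 was at 6.61 log2 CPM in PFA-fixed replicate 2, against 6.47 to 6.48 in the others. Among fresh-frozen libraries, TEK and SOX18 were high in replicate 1, at 5.71 and 3.23 log2 CPM against 5.24 to 5.31 and 2.78 to 2.84 in the others. TSC22D3 was low in fresh-frozen replicate 2, at 5.57 log2 CPM against 5.92 to 5.98 in the others.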

How the results depend on the processing

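All 140 fits of the 9 fallen members under the alternatives were called lower, with limma adjusted p up to 0.0124. The count of called members was 5 with a minimum mean of 3 log2 CPM, which left out KLF2, KLF4, KLF11 and KLF13, and 9 or 10 otherwise. KLF7 was called at 0.32 with median centring and turned to -0.0249 and -0.41 with the rod mean and rod median scalings; without single libraries it ran from 0.16 to 0.36, and without PFA-fixed replicate 3 it was called. The vascular pair minus the neuronal and circadian members moved to -1.68 and -1.94 with log2(CPM + 1). Outside the members, SP1 turned to -0.00151 and -0.38 with the rod mean and rod median scalings and KLF12 to -0.11 with the rod median scaling. Calls over all genes numbered 8804, and 7140 to 8880 under the alternatives. Libraries were not treated as pairs, since the labels do not say which share a dog and correlations of deviations between same-numbered libraries ran from -0.09 to 0.22; 3 of 4 PFA-fixed libraries, all but replicate 3, correlated best with their own number, a hint from the data only; the replicate block gave 8799 calls and the same 9 of 10 members lower. Among the 10 members, depth limits KLF2 and KLF13 most, with fewer than 15 estimated reads in each fixed library. Outside them, the same holds for FHL3, SOX17, SOX18 and ICAM1, and for ATF3 in PFA-fixed replicates 1 to 3. All of these genes, and KLF2 and KLF13, needed their fresh-frozen libraries to exceed 1 CPM in at least 4 libraries.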

Other observations

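Genes beside the members on the chromosomes went both ways. In the gene table of the assembly UU_Cfam_GSD_1.0, 10 protein-coding neighbours of the members were measured, of which 4 fell and 5 rose, where 34.7% of all genes fell and 33.9% rose, with a median change of 0.05 (3 and 1 rises with the rod mean and rod median scalings). KLF5 and KLF12 neighbour each other and changed by -1.17 and 0.54.

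Over the 8 libraries, the values most correlated with KLF2 were those of STK32B, GINS3 and MIF4GD (Pearson r = 0.998, 0.996 and 0.995), and those most correlated with KLF4 were ZC3H7B, IGFBP4 and COL15A1 (Pearson r of 0.998 each). These correlations describe 8 points that share libraries and the difference between the 2 groups.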
